A study of Ovis aries with 95 samples.

Results

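The change in gene expression of the fetal sheep cortex between 80 and 100 d of gestation was measured by comparing 4 cortex arrays labelled 100 d with 4 cortex arrays labelled 80 d, which are 8 of the 95 arrays of the series. Both groups were untreated fetuses of the domestic sheep (Ovis aries), and the tissue was a section of the frontal cortex. The 100 d group spans several days of gestation that end at 100 d. Each group held 1 set of twins, which the labels do not mark, so all arrays were treated as independent animals and the p values measure the spread between these arrays. Sex and breed are not given in the labels. The other arrays hold later cortex (fetuses at 120, 130 and 145 d, and newborns 1 d old) and the brainstem, hippocampus and hypothalamus at the same ages.

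In the fetal cortex, dividing progenitors give rise to neurons first and to glia later. As development proceeds, neurons extend processes and form synapses, astrocytes mature and couple to each other through gap junctions, and the enzymes and binding proteins of the tissue change with them. Each array carries 60-base probes for sheep transcripts and received the RNA of 1 sample, labeled with Cy3, and a value is therefore the brightness of a probe and not a ratio. Levels are normalized log2 intensities. A difference of 1 on this scale is a doubling, and differences of dim probes are narrowed by the offset used in the background correction. The level of one probe is not comparable with that of another. In whole tissue, fewer cells of a type and less RNA per cell cannot be told apart.

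The probes behind the main results are printed here 5′ to 3′ because they define what was measured. Most of them measure a gene alone, and the pairs show how much the probes of a gene repeat each other. Capitals mark the bases that a probe shares with the other probe of the same gene.
PTGDS, the largest rise with a gene symbol (probe A_70_P039426): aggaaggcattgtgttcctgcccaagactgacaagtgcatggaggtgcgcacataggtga
TUBA4A (A_70_P026877): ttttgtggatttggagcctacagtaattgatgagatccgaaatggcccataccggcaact
PYGM (A_70_P051351): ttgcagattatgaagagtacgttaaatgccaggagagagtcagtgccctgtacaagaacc
DBP (A_70_P064061): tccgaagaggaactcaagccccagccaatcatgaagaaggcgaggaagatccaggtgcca
Unnamed transcript with the largest rise of all (A_70_P035131): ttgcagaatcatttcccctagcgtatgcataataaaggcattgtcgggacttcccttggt
BCL2, the largest fall with a gene symbol (A_70_P031256): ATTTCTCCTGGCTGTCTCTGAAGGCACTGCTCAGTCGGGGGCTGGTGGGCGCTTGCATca
BCL2 (A_70_P031257): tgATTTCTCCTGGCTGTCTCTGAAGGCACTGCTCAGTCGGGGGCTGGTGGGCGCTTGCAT
PCNA (A_70_P026206): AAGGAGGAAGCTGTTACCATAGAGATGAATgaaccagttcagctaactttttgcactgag
PCNA (A_70_P026207): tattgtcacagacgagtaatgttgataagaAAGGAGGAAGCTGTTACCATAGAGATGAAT
The 2 BCL2 probes share 58 of their 60 bases and are close to 1 measurement, whereas the PCNA pair shares 30. The files name no genome build, so no positions are given. Hybridization of a probe to related transcripts, such as other alpha-tubulins for TUBA4A, was not tested.

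A gene was tested when a probe passed the brightness filter on at least 4 of the 24 cortex arrays, of any age. Entries without a symbol count as genes here. Of 12895 genes tested, 770 (5.97%) differed between 100 and 80 d at an adjusted p under 0.05 (limma over the 24 cortex arrays, Benjamini-Hochberg over all genes). There were 327 higher at 100 d (2.54% of those tested) and 443 lower (3.44%). At an unadjusted p under 0.05 the count was 2527. The rises were larger than the falls, with a median difference of 0.62 among the higher genes and -0.42 among the lower ones, and 60 genes rose by more than 1 on the log2 scale whereas 10 fell by more than 1. The median over all genes tested was -0.01. The arrays of the 2 ages did not overlap for 657 of the 770 genes. Over all genes, all 4 arrays at 100 d lay above all 4 at 80 d for 5.15% and below for 6.06%, and the smallest p that an exact permutation test of 4 against 4 arrays allows is 0.0286 (two-sided).

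The count moved with single arrays and with the way slides were handled. Without replicate 3 of 100 d it was 343, and without replicate 2 of 100 d it was 473. With the slide as a block it was 1212. The 8 arrays lay on 3 slides that each held both ages. The difference had one sign on all 3 slides for 753 of the 770 genes (97.8%), a share that their choice on the same arrays largely fixes. The direction split depended on the scaling. When the processed signal of the scanner software was divided by the 75th percentile of its array, 430 genes were higher and 292 lower.

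Most changed genes could not be given a symbol by the matching used here. A gene symbol was available for 888 of the tested genes, of which 51 (5.74%) changed, 30 up and 21 down. The other 719 changed genes have no symbol here, although the files may carry a description of them.

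Between 74.6 and 78.8% of the gene spots were well above background on the 8 arrays, and any pair of arrays of an age correlated at 0.986 or more. The first principal component of the 8 arrays held 30.9% of the variance and separated the 4 arrays at 80 d from the 4 at 100 d. The second held 22.1% and set replicate 4 of both ages, the arrays of 1 slide, apart from the other 6. Replicate 4 of 80 d correlated at 0.991 with an array of 100 d and at 0.987 on average with its own group.

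PTGDS, the prostaglandin D synthase that is also secreted into cerebrospinal fluid, had the largest rise among genes with a symbol that changed without overlap. Its level was 10.91, 10.18, 10.43 and 10.80 on the 4 arrays at 80 d and 12.10, 12.63, 12.92 and 12.06 at 100 d. All 4 older arrays were more than 1 unit above every younger array. The difference was 1.84 ± 0.18 (SE), a 3.58-fold rise (limma adjusted p = 6.1e-06), and it was 1.55, 2.34 and 1.25 on the 3 slides. PTGDS is also abundant in choroid plexus and meninges, and the list of choroid plexus and ependyma genes had PTGDS as its only changed member among 6 entries, with a median of 0.04. Transthyretin (TTR), a defining choroid plexus product, ranged from 9.26 to 13.40 at 80 d and from 8.51 to 13.85 at 100 d, with a difference of 0.00 between the means. TTR varied by several units between arrays of one age. The 4 arrays at 80 d had the same order in TTR as in PTGDS, and those at 100 d did not. The part of choroid plexus tissue in the PTGDS levels was not tested.

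TUBA4A, an alpha-tubulin of microtubules in mature neurons, was 7.09, 7.07, 6.99 and 6.83 at 80 d and 8.14, 8.49, 8.50 and 8.31 at 100 d. It rose by 1.36 ± 0.20 (adjusted p = 3.1e-04), and the 2 ages were far apart relative to the spread of 0.12 and 0.17 (SD) within them. Its level at 80 d is near the background, where the offset narrows a rise, and with the processed signal the rise was 2.97. CA11, a carbonic anhydrase-related protein of the brain that lacks the enzyme's activity, rose by 1.27 ± 0.15 from 11.86 ± 0.25 to 13.13 ± 0.23 (SD, n = 4 arrays per age, limma adjusted p = 5.1e-05). Its difference was 1.38, 1.40 and 1.29 on the 3 slides. PTGDS, TUBA4A and CA11 passed under every alternative and without any single array.

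A gene of energy supply was also among the 12 largest rises with a symbol. PYGM, the glycogen phosphorylase that releases glucose units from stored glycogen, was nearly identical on the 4 arrays at 80 d (6.90 to 6.94) and spread from 7.64 to 8.34 at 100 d. All older arrays were above the younger ones, with a rise of 1.09 ± 0.21 (adjusted p = 0.0034). Its low level at 80 d lies near the background, so the offset narrows this rise, and it was 2.68 with the processed signal. PYGM was the only changed entry of 18 on the list of glycolysis and glucose uptake, although 15 of the 18 had a positive difference and their median was 0.21, against -0.01 over all genes.

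The other rises in this group of 12 had various roles. CNN1, the actin-binding calponin of smooth muscle, rose by 1.11 ± 0.20 (adjusted p = 0.0019). BMPR1B, a receptor for bone morphogenetic proteins, rose by 0.92 ± 0.22, IGFBP6, a binding protein with preference for IGF2, by 0.85 ± 0.20, and DBP, a transcription factor of the circadian output, by 0.73 ± 0.12. DBP was 7.49, 7.69, 7.55 and 7.91 at 80 d and 8.43, 8.34, 8.32 and 8.49 at 100 d, with the older arrays close together and above all younger ones. A transcript that the files call EM4C rose by 1.08 ± 0.28 (adjusted p = 0.024), with levels of 6.63 to 6.98 at 80 d and 7.27 to 8.39 at 100 d. Its call was lost without replicate 2 or 3 of 80 d or replicate 3 or 4 of 100 d (adjusted p up to 0.096). That of BMPR1B was lost without replicate 1 or 3 of 80 d (up to 0.054) and when only the 8 arrays were fitted (0.060), and that of IGFBP6 without replicate 2 or 3 of 100 d (up to 0.061).

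**Figure D1:**
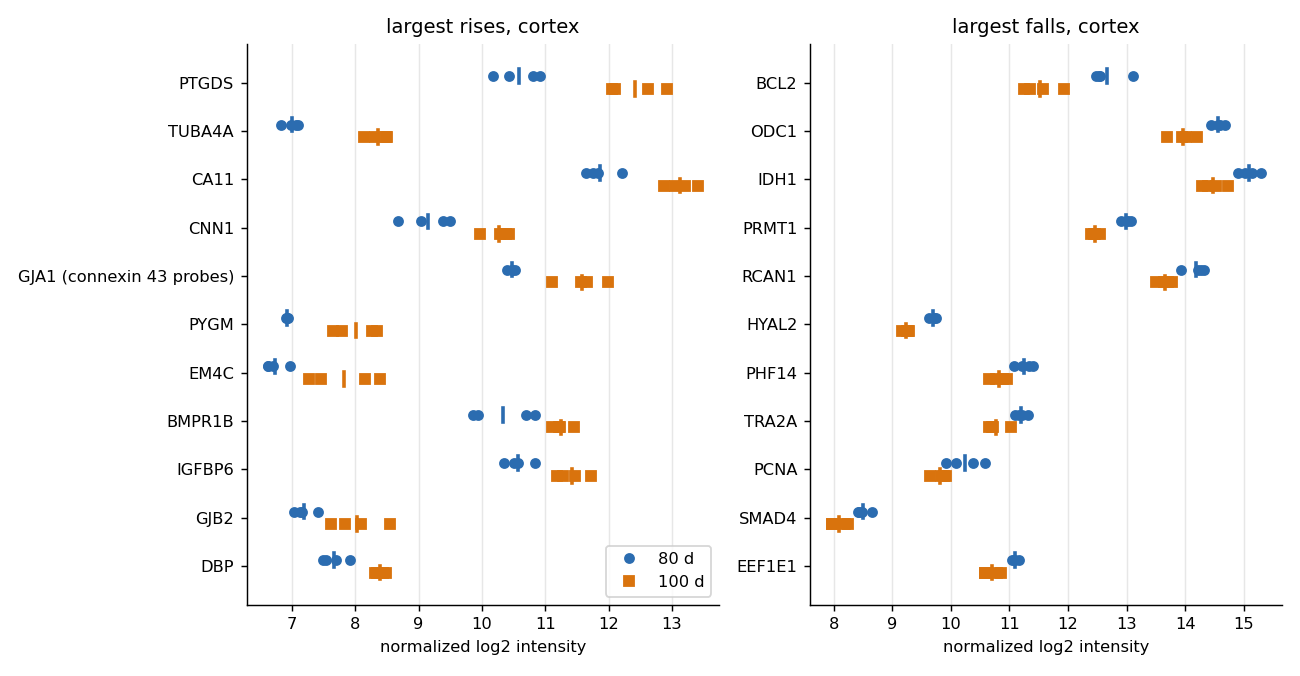
Normalized log2 intensity (horizontal axis) of 11 of the 12 genes with the largest rises (left) and 11 of the 12 with the largest falls (right) among genes with a symbol in cortex. Each circle is an array at 80 d and each square an array at 100 d (4 per age), and the vertical ticks are the means. In every row the 2 ages do not overlap, with the widest gap for PTGDS and the narrowest for PCNA, and rows were chosen to have no overlap.

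BCL2, the mitochondrial inhibitor of apoptosis, had the largest fall among genes with a symbol that changed without overlap of the ages. An entry on the plasma protein list had a larger difference of -1.55 that did not pass. The level of BCL2 was 13.12, 12.52, 12.48 and 12.54 at 80 d and 11.57, 11.25, 11.35 and 11.93 at 100 d. The fall was 1.14 ± 0.20 on the log2 scale (limma adjusted p = 0.0017), and 80 d replicate 1 stood above the other 3 younger arrays. On the list of cell survival and death, 2 of 10 entries fell, BCL2 among them, 0 rose, and the median was -0.12. Over all genes tested 3.44% fell. Of the rest, BAX, which promotes apoptosis, had a difference of -0.27 (adjusted p = 0.30), MCL1 one of -0.13 (0.49) and BCL2L1 one of -0.12 (0.46), the last 2 being inhibitors of apoptosis.

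Of 12 cell cycle entries and 9 neural progenitor entries, 3 passed in all, and these 3 fell. Over all genes tested 5.97% passed and 3.44% fell. ODC1, the rate-limiting enzyme of polyamine synthesis and abundant in dividing cells, was 14.59, 14.57, 14.67 and 14.44 at 80 d and 14.21, 13.95, 14.01 and 13.68 at 100 d. The older arrays were all lower, by 0.61 ± 0.12 on average (adjusted p = 0.0040). PCNA, the sliding clamp of DNA polymerase, was 9.92, 10.58, 10.08 and 10.37 at 80 d and 9.91, 9.88, 9.84 and 9.65 at 100 d. Its difference was -0.42 ± 0.12 (adjusted p = 0.038), with the first array of each age almost level. LMNB1, lamin B1 of the nuclear envelope, ranged from 8.53 to 9.60 at 80 d and from 8.15 to 8.79 at 100 d. The ages overlapped at one 80 d array, replicate 3, and the difference was -0.55 ± 0.15 (adjusted p = 0.034). Both calls were lost without replicate 2 or 4 of 80 d or replicate 2, 3 or 4 of 100 d, and that of LMNB1 also without replicate 1 of 80 d (adjusted p up to 0.14 for PCNA and 0.15 for LMNB1). Both were also lost when only the 8 arrays were fitted (0.16 and 0.22), LMNB1 with the processed signal and PCNA with trend and robust settings.

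On the list of cell cycle genes, PCNA and LMNB1 were the 2 that fell among 12 measured, and 0 rose. Of the 12 differences 10 were negative, with a median of -0.23 against -0.01 for all genes, of which 46.3% were positive. The mitotic kinases CDK1 and AURKA had differences of -0.25 (adjusted p = 0.25) and -0.24 (0.10), and cyclin D3 (CCND3) one of 0.27 (0.23). Only 12 of 87 listed symbols had a probe that could be named. The list of neural progenitor and radial glia genes gave another picture, since ODC1 was its only changed entry of 9 and 6 had positive differences. PAX6, a transcription factor of radial glia, differed by more within an age than between the ages. It ranged from 8.10 to 10.04 at 80 d and from 8.73 to 9.52 at 100 d, with a mean difference of 0.01. In both ages replicates 2 and 4 were the higher arrays.

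Further falls among the 12 largest were seen in genes of metabolism and of nuclear and RNA processes. IDH1, the cytosolic isocitrate dehydrogenase that yields NADPH, fell by 0.61 ± 0.16 (adjusted p = 0.024), from 15.09 ± 0.17 to 14.48 ± 0.19. PRMT1, the main arginine methyltransferase, was 13.08, 12.98, 12.91 and 13.02 at 80 d and 12.54, 12.44, 12.47 and 12.39 at 100 d, so that a difference of -0.54 ± 0.10 (adjusted p = 0.0027) stood against a spread of 0.07 and 0.06 (SD) within the ages. RCAN1, an inhibitor of the phosphatase calcineurin, fell by 0.53 ± 0.09 (adjusted p = 0.0019). HYAL2, which degrades hyaluronan, fell by 0.46 ± 0.12, and its 8 arrays formed 2 narrow groups at 9.63 to 9.74 and 9.17 to 9.29. PHF14, a chromatin reader, and SMAD4, the common mediator of TGF-beta and BMP signals, had differences of -0.44 (0.0098) and -0.40 (0.0052), with the adjusted p in brackets. EEF1E1, a part of the tRNA synthetase complex, had -0.40 (0.018), and the splicing factor TRA2A had -0.42 (0.044), a call lost in 12 of 20 alternatives. When only the 8 arrays were fitted, SMAD4 (adjusted p = 0.065), PHF14 (0.055) and EEF1E1 lost their calls, and IDH1 lost its own with the processed signal. Without single arrays, the call of IDH1 was lost for replicate 1 or 3 of either age (adjusted p up to 0.096), that of HYAL2 for replicate 4 of 100 d (0.052), that of EEF1E1 for replicate 2 of either age or replicate 3 of 100 d (up to 0.078), and that of TRA2A for every array but replicate 4 of 100 d (up to 0.14).

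Astrocyte genes and growth factor signalling held the most changed entries of the lists, 5 each, with 5.97% called over all genes. Of 17 astrocyte entries from 15 genes, 5 rose and 0 fell, 15 had positive differences, and the median was 0.36. GFAP, the intermediate filament of astrocytes, was 7.57, 8.19, 7.86 and 8.13 at 80 d and 8.71, 8.64, 8.75 and 8.54 at 100 d, a rise of 0.72 ± 0.18 (adjusted p = 0.020). The older arrays were above the younger and closer together. Connexin 43 (GJA1), the main gap junction protein of astrocytes, is on the array under 2 names with different probes, and both rose. The probes named connexin 43 were 10.47, 10.53, 10.40 and 10.48 at 80 d and 11.56, 11.99, 11.67 and 11.10 at 100 d, a difference of 1.11 ± 0.18 (adjusted p = 7.9e-04). For those named GJA1, which are dimmer, the difference was 0.50 ± 0.12 (adjusted p = 0.018), so the gene counts for 2 of the 5 entries. With the processed signal the dimmer pair differed by 1.29. The GFAP call was lost without replicate 1 or 3 of 80 d or replicate 3 of 100 d (adjusted p up to 0.072), and that of the dimmer pair without replicate 2 or 3 of 100 d (up to 0.072) and when only the 8 arrays were fitted.

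CD81, a tetraspanin made by glia and other cells, rose by 0.52 ± 0.12 (adjusted p = 0.012), from 12.14, 12.28, 12.20 and 12.29 to 12.71, 12.79, 12.88 and 12.60. The arrays of the 2 ages did not overlap, and the call was lost without replicate 3 of 100 d (0.054). TIMP3, an inhibitor of matrix metalloproteinases that is also on the list of connective tissue genes, rose by 0.46 ± 0.13 (adjusted p = 0.039) and lost its call in 8 of 20 alternatives, among them the omission of replicate 3 or 4 of 80 d or of any 1 array of 100 d (up to 0.13). The water channel AQP4 had a larger difference of 0.75, but its arrays overlapped (12.68 to 14.08 at 80 d and 13.55 to 14.69 at 100 d, adjusted p = 0.28). The summed linear level of the 17 entries ranged from 36734 to 51150 at 80 d and from 50134 to 69597 at 100 d. Another gap junction gene, GJB2 (connexin 26), which is made in meninges as well, rose by 0.84 ± 0.24 (adjusted p = 0.041), with single probes between 0.53 and 1.32. Its call was lost on probes 2, 4 and 5 of its 5 taken alone (adjusted p = 0.17, 0.066 and 0.094). It was also lost without replicate 2, 3 or 4 of either age (up to 0.14).

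**Figure D2:**
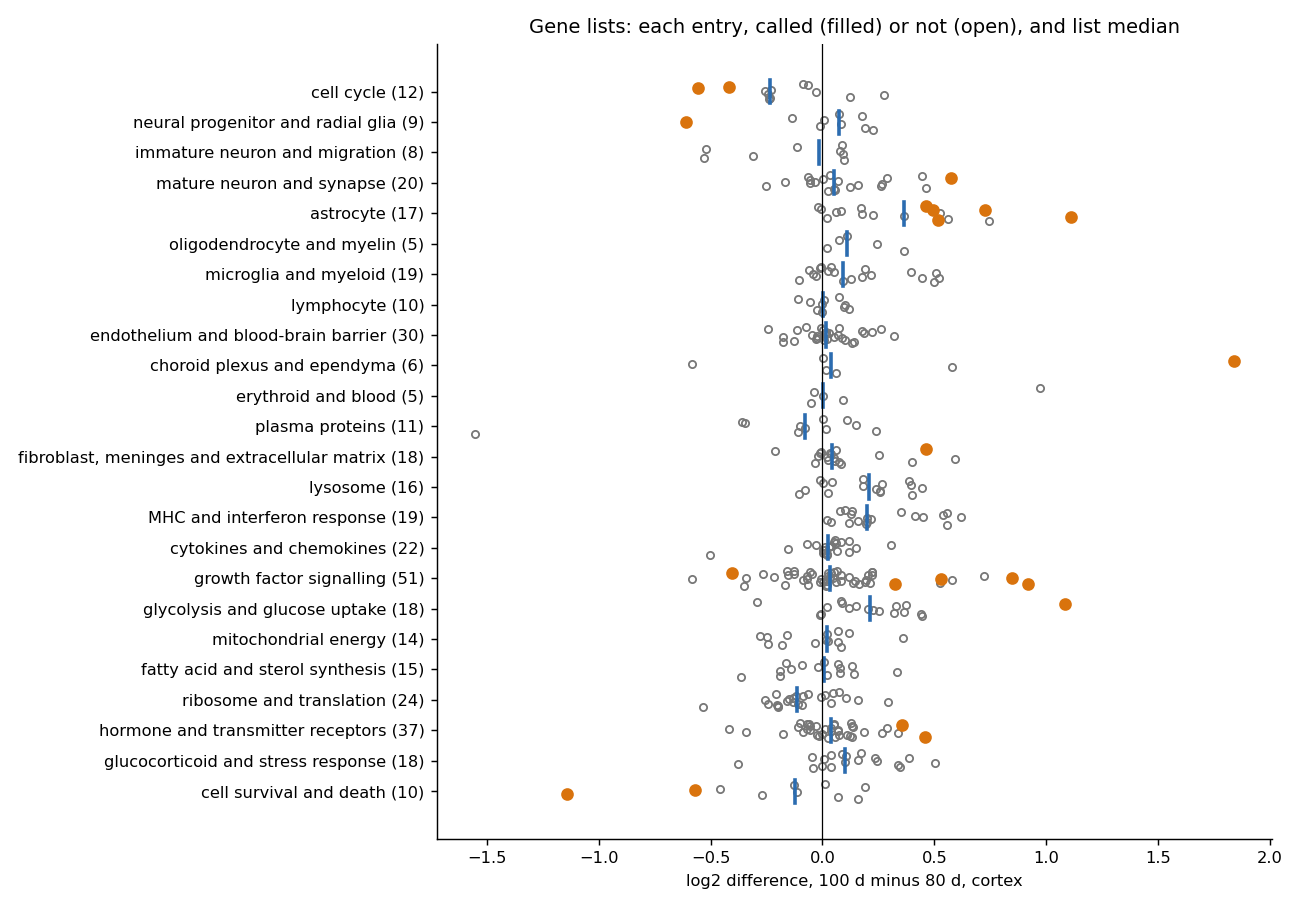
Difference between 100 and 80 d in cortex (log2, horizontal axis) of each entry of 24 gene lists, with the number of entries in brackets. Filled points passed the adjusted p under 0.05, open points did not, and the blue bars are the list medians. The astrocyte entries lie mostly to the right, with a median of 0.36, and the cell cycle entries mostly to the left, with a median of -0.23, while most other lists centre near 0.

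Of 20 entries for mature neurons and synapses, 1 passed, a share close to the 5.97% over all genes. The median was 0.05, and 14 of the 20 had positive differences, where 46.3% of all genes tested were positive. NPY, the neuropeptide of cortical interneurons, was 11.87, 11.71, 12.02 and 12.13 at 80 d and 12.45, 12.52, 12.59 and 12.48 at 100 d. It was higher on every older array, by 0.58 ± 0.13 (adjusted p = 0.0092). The peptide somatostatin (SST) had a difference of 0.45 (adjusted p = 0.41), an entry for the synaptic kinase CAMK2 one of 0.46 (0.056), and the glutamate receptor subunits GRIA1 and GRIN1 differences of -0.25 (0.83) and 0.26 (0.33). A probe that the files describe as similar to bovine neurogranin, a postsynaptic calmodulin-binding protein, was singled out after its values were seen. It was 7.73, 7.31, 8.31 and 8.16 at 80 d and 9.28, 8.86, 9.30 and 8.76 at 100 d, a rise of 1.17 ± 0.21 (adjusted p = 0.0024) without overlap. Among genes of immature and migrating neurons 0 of 8 entries passed. CXCR4, the chemokine receptor that guides migrating neurons, came nearest, with all older arrays lower (8.77 to 8.99 against 9.22 to 9.57) and a difference of -0.53 (adjusted p = 0.096, and 0.031 with the replicate number as a block).

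Growth factor signalling had the most entries measured, and 5 of 51 changed, 4 up and 1 down, with a median of 0.03, where 5.97% of all genes changed. The rises were in the receptor BMPR1B, the ligand BMP7 and the binding proteins IGFBP4 and IGFBP6, and the fall was in SMAD4. IGFBP4, which binds both IGFs, was 13.41, 13.20, 13.09 and 13.25 at 80 d and 14.07, 13.69, 13.62 and 13.69 at 100 d. The older arrays were all higher, by 0.53 ± 0.13 (adjusted p = 0.020), with 100 d replicate 1 above the rest, and the call was lost without that array or without replicate 2 or 3 of 80 d (adjusted p up to 0.068). BMP7 was dim, well above background on 2 of 4 arrays at 80 d, and its rise of 0.32 ± 0.09 (adjusted p = 0.039) was lost in 9 of 21 alternatives, among them the omission of replicate 1, 2 or 3 of 80 d or replicate 2 or 3 of 100 d (up to 0.13). The losses for BMPR1B and IGFBP6 are given above. IGFBP2 moved the other way, with a difference of -0.58 that did not pass (adjusted p = 0.094), and IGF2 and IGF1 had differences of 0.58 (0.55) and 0.19 (0.35). The receptors IGF1R and TGFBR1 had -0.09 (0.75) and -0.16 (0.14).

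Among 37 entries for hormone and transmitter receptors 2 rose and 0 fell, a share close to the 5.97% over all genes, with a median of 0.04. PTGFR, the receptor of prostaglandin F2-alpha, was 8.70, 8.59, 8.60 and 8.83 at 80 d and 8.95 to 9.15 at 100 d, a difference of 0.36 ± 0.10 (adjusted p = 0.032). The older arrays were all higher, but the call was lost without replicate 1, 2 or 3 of 80 d or replicate 2 or 3 of 100 d (up to 0.12). The beta-3 adrenoceptor ADRB3 rose by 0.46 ± 0.11 (adjusted p = 0.018) from 6.89 to 7.22 at 80 d to 7.43 to 7.60 at 100 d, a call lost without replicate 3 of 80 d (0.053). The glucocorticoid receptor NR3C1 had a difference of 0.04 (0.89). On the list of glucocorticoid and stress response genes 0 of 18 entries passed. HSD11B1, which regenerates active cortisol, had the smallest p of that list, with all older arrays higher (8.57 to 8.89 against 8.07 to 8.38) and a difference of 0.50 (adjusted p = 0.055, and 0.047 with the replicate number as a block).

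The lists for antigen presentation, lysosomes and myeloid cells had no entry that passed. All 19 entries for antigen presentation and the interferon response had a positive difference, from 0.02 to 0.62 with a median of 0.20, where 46.3% of all genes tested were positive, but 0 of the 19 passed and 0 separated the 2 ages. The entry nearest the threshold was CD1B, an antigen-presenting molecule for lipids, with a difference of 0.62 (adjusted p = 0.36). Lysosomal genes had 13 of 16 positive, a median of 0.21 and 0 passing. ATP6V0C, a subunit of the proton pump of lysosomes, had 0.40 (adjusted p = 0.097) with all older arrays higher. The microglial and myeloid list had 13 of 19 positive, a median of 0.09 and 0 passing, with 0.51 for ITGB2, the beta subunit of leukocyte integrins (0.17). Of the immune genes that the study followed in cortex, CD81 passed, whereas ITGAM had a difference of -0.04 (0.90), CD1D 0.19 (0.40), IL10 0.00 (0.99) and TGFB1 0.22 (0.23). FCGR2B was not well above background on any of the 8 arrays. CSF1R, CSF1, IL34, CD24 and the myelin gene MBP, which the study also followed, have no probe that could be named and were not analysed here.

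Markers of other cells and of blood were followed beside these results. The summed linear level of the 19 microglial and myeloid entries was 19542 to 29738 at 80 d and 28315 to 32371 at 100 d, with FCGR2B and LYZ not well above background on any array. For the 5 red cell entries the sum was 2993 to 3620 at 80 d and 3801 to 11585 at 100 d, and it rested on beta-globin (HBB), which was 11.60, 11.51, 11.28 and 11.43 at 80 d and 11.72, 13.44, 12.49 and 12.04 at 100 d. These values average 2 probes that disagreed. The brighter, A_70_P051261, differed by 0.28 with overlapping ages (13.87 to 14.44 against 13.34 to 15.33) and the dimmer, A_70_P061046, by 1.66 without overlap, and the mean difference of 0.97 did not pass (adjusted p = 0.24). CA1 and EPO of the same list were not well above background on any array. The sums of the 18 connective tissue entries overlapped, with 11113 to 15476 at 80 d and 10495 to 13792 at 100 d. Those of the 30 endothelial entries overlapped as well, with 10519 to 12068 and 11145 to 11572. The part of these cells in the changes of other genes was not tested. Oligodendrocyte genes were hardly represented among the probes that could be named, since 5 of 37 listed symbols had such a probe. The array may carry others without a symbol. Of these 5 entries 0 passed, and NKX6-1 was not well above background on any of the 8 arrays. The lists for lymphocytes (10 entries), endothelium (30), red cells (5), plasma proteins (11), cytokines and chemokines (22), mitochondrial energy (14), lipid synthesis (15) and ribosome and translation (24) had 0 changed entries each, with medians between -0.11 and 0.03. In the last of these EEF1A1, a translation elongation factor, had all older arrays lower in the mean of its 3 probes. The difference was -0.54 (adjusted p = 0.072, and 0.035 with the replicate number as a block). On each probe alone the ages overlapped, and the limma adjusted p was 0.24, 0.26 and 0.51. The 80 d array of replicate 3 was the highest of its age on 2 probes (13.11 and 12.84) and the lowest on the other (14.94). Another 2 entries passed with that block but not without it. These were LEPR, the leptin receptor, with 0.19 (0.068, and 0.045 with the block), and SLC25A4, the mitochondrial ADP/ATP carrier, with 0.36 (0.058, and 0.049 with the block). Counting the block, LEPR passed in 7 of 22 alternatives, SLC25A4 in 3 of 20 and EEF1A1 in 4 of 22.

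Transcripts without a symbol also had large changes, and 4 outside the gene lists were named here after their values were seen. They were the 2 largest rises and 2 largest falls among those that changed without overlap and were well above background on all 8 arrays. Probe A_70_P035131 was 8.33, 8.40, 8.24 and 8.73 at 80 d and 11.25, 10.42, 10.93 and 10.17 at 100 d, a rise of 2.27 ± 0.27, or 4.82-fold (adjusted p = 4.8e-05). Every older array lay more than 1 unit above every younger one. Probe A_70_P034226 rose as well (adjusted p = 4.9e-05), from 11.69 to 12.95 at 80 d to 13.99 to 14.90 at 100 d. Probe A_70_P066061 was 9.26, 9.22, 9.36 and 9.02 at 80 d and 7.82, 7.83, 7.87 and 8.07 at 100 d. It fell by 1.32 ± 0.11, or 2.49-fold, at an adjusted p of 5.2e-07, with both ages tightly grouped. Probe A_70_P063691 had a larger difference of -1.66 ± 0.46 with more spread (12.45 to 13.67 against 10.93 to 12.11, adjusted p = 0.035), and this call was lost with the processed signal and without replicate 1, 2 or 3 of 80 d or replicate 1, 3 or 4 of 100 d (up to 0.10). The other 3 passed under every alternative.

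Of the 5 steps between neighbouring ages of cortex, the first 2 held the most changed genes. Between 100 and 120 d 837 genes changed (6.49%), 397 up and 440 down, against 165 (1.28%) between 120 and 130 d, 22 (0.171%) between 130 and 145 d and 33 (0.256%) between 145 d and 1 d after birth. The steps differ in length, and neighbouring steps share the arrays of an age, so the counts stand side by side without a test of their difference.

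Single genes took different courses after 100 d. PTGDS rose again by 2.42 to 120 d (adjusted p = 8.1e-08) and TUBA4A by 2.21 (1.3e-06). GFAP rose by 0.91 to 120 d (0.0038) and was 2.72 above its 100 d level in newborns. BCL2 had a further difference of -0.65 that did not pass (0.055), and ODC1 fell by 0.51 (0.011). Other genes were highest at 100 d. PTGFR had means of 8.68 at 80 d, 9.03 at 100 d and 8.30 at 120 d, and its fall by 0.73 passed (1.1e-04). IGFBP4 went from 13.24 to 13.77 and reached 12.49 in newborns, with no single later step that passed. The mean of ADRB3 was 7.07, 7.53 and 7.31 at 80, 100 and 120 d, a second step that did not pass (0.30). For A_70_P035131 the means were 8.42 at 80 d, 10.69 at 100 d, 11.16 at 120 d and 10.42 in newborns, and none of the 4 later steps passed. The fall of A_70_P066061 went on by 0.53 to 120 d (0.0058), with means between 7.37 and 7.49 from then on.

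**Figure D3:**
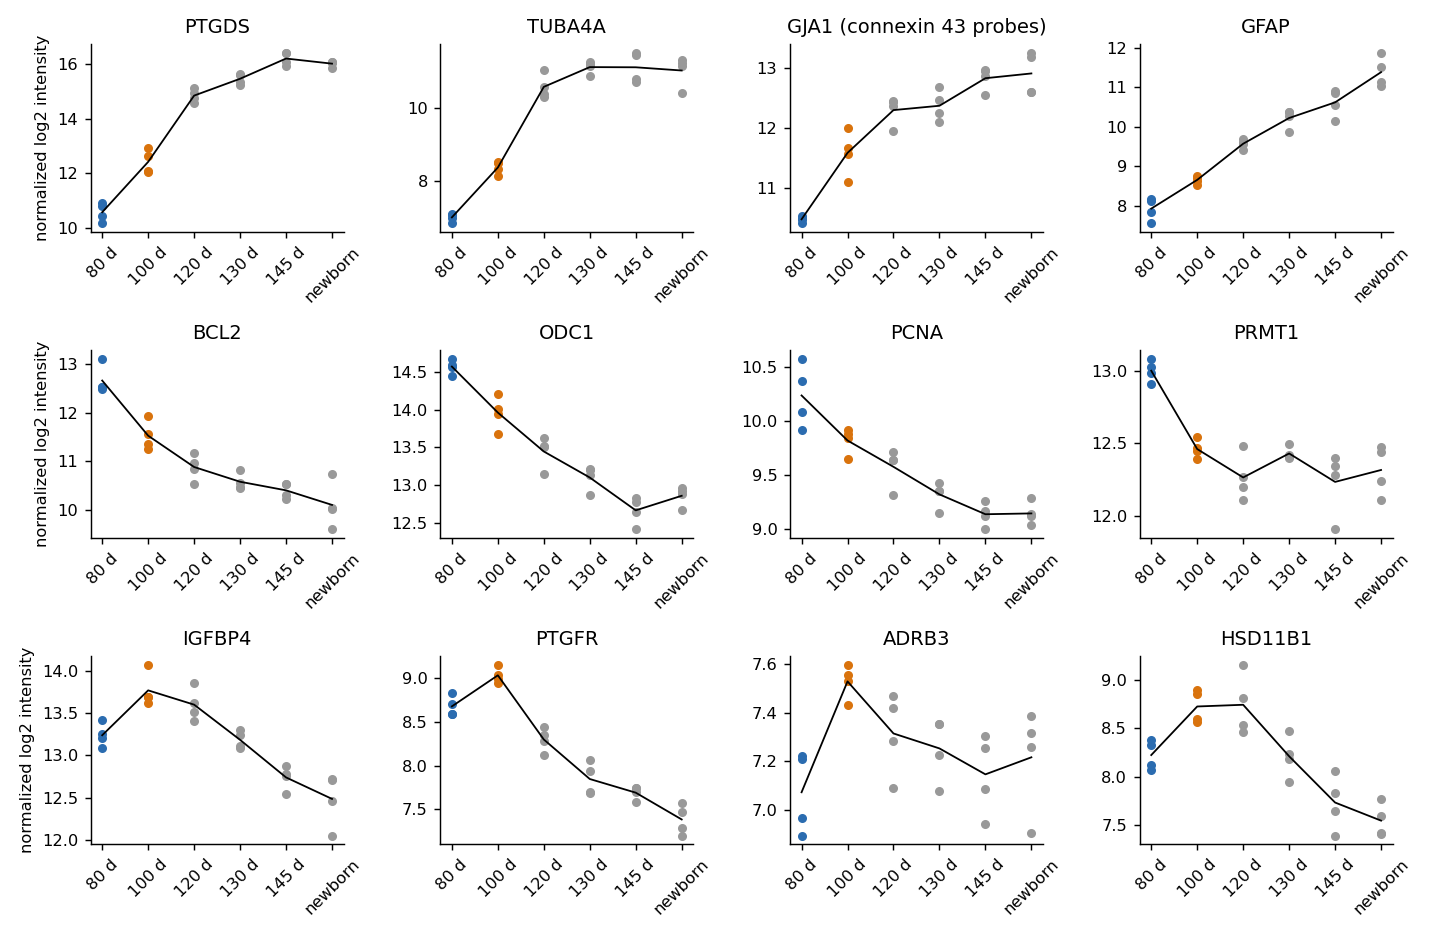
Normalized log2 intensity (vertical axis, its range differs between panels) of 12 genes in cortex from 80 d of gestation to 1 d after birth (newborn), with ages evenly spaced. Each point is an array (4 per age), blue at 80 d, orange at 100 d and grey later, and the line joins the means. PTGDS, TUBA4A, connexin 43 and GFAP had higher means at all later ages than at 100 d. BCL2, ODC1 and PCNA had lower ones, although no later step of BCL2 or PCNA passed. IGFBP4, PTGFR and ADRB3 had their highest mean at 100 d.

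Whether a change from 80 to 100 d differed between cortex and another region was tested as a difference of changes in 1 limma fit over all 95 arrays. By the study's methods the regions were dissected from the same fetuses. The labels do not mark which arrays share a fetus, and the fit treated all arrays as independent. Against brainstem 12 genes differed (0.0931% of 12895), 7 with the higher change in cortex and 5 with the lower, and 610 at an unadjusted p under 0.05. Without replicate 2 of cortex at 100 d the count was 7. Against hippocampus 2 differed (0.0155%, unadjusted 557) and against hypothalamus 3 (0.0233%, unadjusted 263). Replicates were less alike in the last 2 regions. The fit took 1 spread per gene from all regions, so theirs also entered the errors of the comparison with brainstem. The mean correlation of an array with its group was 0.987 to 0.993 in cortex, 0.985 to 0.993 in brainstem, 0.946 to 0.975 in hypothalamus and 0.888 to 0.962 in hippocampus, where 100 d has 3 arrays. Without replicate 1 of hippocampus at 100 d the count against hippocampus was 67, without replicate 2 it was 6 and without replicate 3 it was 8. On their own, the same ages differed in 15 genes in hypothalamus (0.116%), 6 in hippocampus (0.0473%) and 1390 in brainstem (10.9%), against 770 in cortex.

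A_70_P035131 changed more in cortex than in hippocampus, by 1.99 ± 0.36 (adjusted p = 0.0026), and than in hypothalamus, by 1.90 ± 0.34 (0.0032). Its own change was 0.28 in hippocampus, 0.37 in hypothalamus and 0.81 in brainstem, where the difference of 1.46 did not pass (0.061). At 80 d its mean was similar in the 4 regions, 8.42 in cortex and 8.78 to 9.23 elsewhere, and at 100 d cortex stood above the others at 10.69 against 9.21 to 9.59. The fitted fall of A_70_P066061 was larger in cortex than in hypothalamus, by 0.98 (1.1e-04). In hypothalamus its mean was 7.27 at 80 d and 6.93 at 100 d, near the background, where the offset narrows a fall. The size of that difference is therefore uncertain. In brainstem the probe was already dim at 80 d (6.73) and not well above background on any array at 100 d, so its fall there has only a bound, at least 1.1-fold, and how far it differed from that in cortex cannot be given, although the fitted changes passed (7.1e-06). In hippocampus it fell by 0.92, and the difference from cortex was -0.40 (0.87).

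The 5 genes with a symbol that differed between cortex and brainstem all changed in brainstem and did not pass in cortex. NEUROD1, a transcription factor of newly formed neurons, had a change of -0.31 in cortex (11.73 ± 0.27 to 11.42 ± 0.55) and of -3.32 in brainstem (12.75 ± 1.24 to 9.43 ± 0.84), a difference of 3.01 ± 0.56 (adjusted p = 0.0022). SERPINA1, the plasma protease inhibitor alpha-1-antitrypsin, was not well above background at 100 d in either region. In brainstem it was 9.55 ± 1.82 at 80 d, and its fall from that mean was at least 7.69-fold. In cortex it was well above background on 2 of 4 arrays at 80 d, and the ages overlapped. Its difference in cortex did not pass (adjusted p = 0.19), so the bound there, at least 1.19-fold, does not show a fall. With bounds on both sides the fitted difference of 2.71 (0.0064) is not a measured size. The gap junction gene GJB1 (connexin 32), which is made by oligodendrocytes, was 6.78 ± 0.05 and 6.80 ± 0.10 in cortex and rose from 7.17 ± 0.04 to 9.18 ± 0.78 in brainstem, a difference of -1.99 ± 0.32 (1.2e-04). CRYAB, a small heat shock protein also found in oligodendrocytes, differed by -1.75 (0.037), with a change of 0.36 in cortex and 2.12 in brainstem. NKX6-1, a homeobox gene, had -1.73 (0.042), but in cortex its probe was not well above background on any array, so that this fitted value is not a measured size either. The adjusted p of CRYAB passed in 5 of 13 alternatives and that of NKX6-1 in 2 of 13.

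Several of the largest changes of cortex were not shown to differ from those of the other regions. With 1 spread shared by all regions, this does not show that the changes were alike. PTGDS rose by 1.84 in cortex, 1.23 in hypothalamus, 1.61 in brainstem and 2.39 in hippocampus, and passed in each, from a lower level in cortex (10.58 at 80 d, against 12.10 to 14.53). The change in cortex minus that elsewhere was 0.61 ± 0.43 for hypothalamus, 0.23 ± 0.43 for brainstem and -0.55 ± 0.44 for hippocampus. GFAP changed by 0.72, 0.68, 0.70 and 0.78 in the same order. BCL2 had changes of -1.14 in cortex, -0.50 in hypothalamus, 0.20 in brainstem and 0.62 in hippocampus, and the largest difference, -1.76 ± 0.58 against hippocampus, did not pass (0.69). For TUBA4A the changes were, again in that order, 1.36, 0.86, 0.30 and 0.96, with no difference that passed. The probes named connexin 43 changed by 1.11 in cortex and -0.15 in brainstem, and the difference of 1.26 ± 0.97 did not pass.

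**Figure D4:**
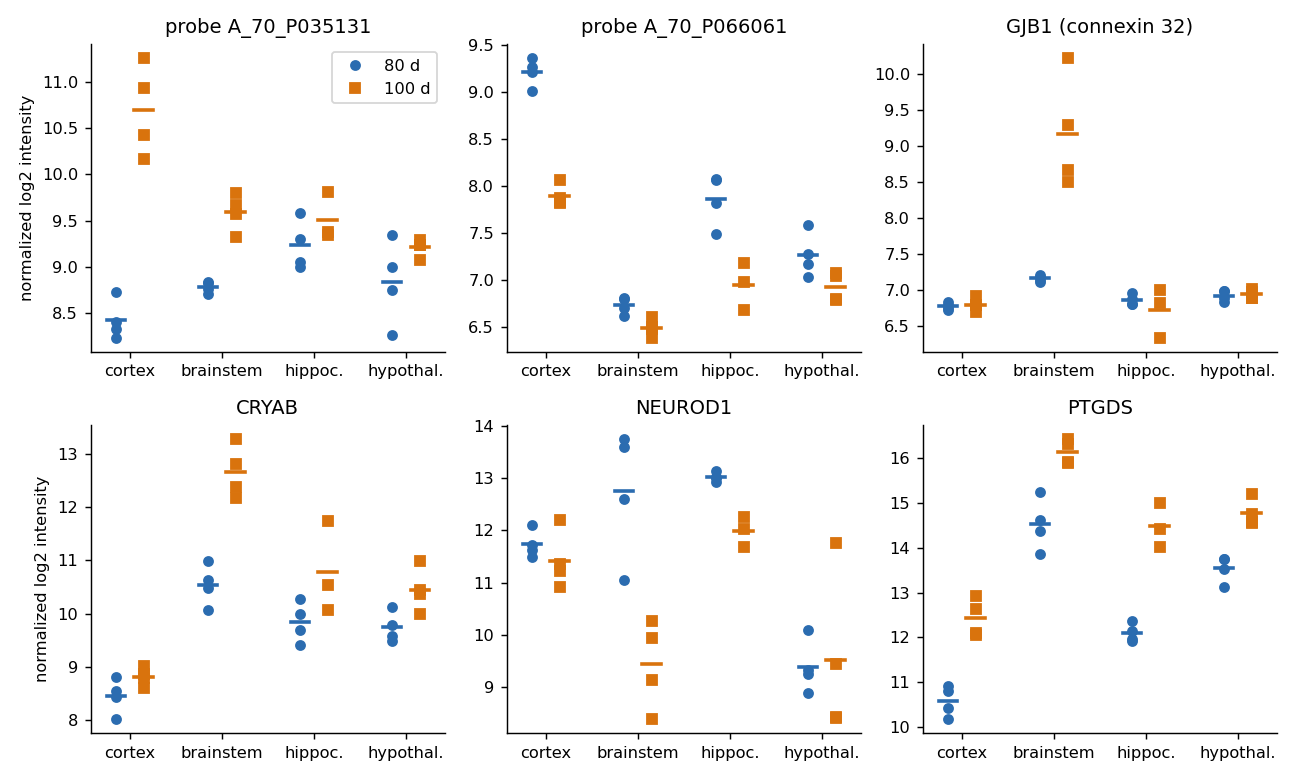
Normalized log2 intensity (vertical axis, its range differs between panels) of 6 transcripts in 4 brain regions, cortex, brainstem, hippocampus (hippoc.) and hypothalamus (hypothal.). Circles are arrays at 80 d, squares arrays at 100 d (4 per group, 3 for hippocampus at 100 d), and the bars are means. The rise of A_70_P035131 is steepest in cortex, GJB1, CRYAB and NEUROD1 move mostly in brainstem, and PTGDS rises in all 4 regions.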

How the data were processed

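The members and gene lists were chosen with earlier results of these data known. The authors hybridized Cy3-labeled RNA to 1-colour arrays and deposited each array's mean intensity, local background intensity and processed signal per spot, before normalization between arrays, with software version 10.1.1.1 per the file headers. Their normalized log2 values for all arrays were deposited too, in 1 table, and served as an alternative. Its 24 cortex columns each matched their own array best (slopes 0.982 to 0.990).

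Intensities were corrected with normexp (offset 50) and quantile normalized over 95 arrays (limma 3.58.1, R 4.3.3). A probe was kept when it was 1.1 times the 95th percentile of 77 negative controls on 4 cortex arrays, which left 13429 of 15008. Spots marked as outliers were left out on their array. Probes of one name were averaged. Symbols came from the files and the RefSeq table of ARS-UI_Ramb_v3.0 (703 probes by accession, 125 by gene identifier, 500 by symbol, 20 by synonym, 214 by file name alone), and 13446 probes had none. lmFit and eBayes used all 24 cortex arrays. Named genes were the 12 largest called rises and falls with a symbol and no overlap, up to 5 changed entries per list or the one with the smallest p, the study's cortex genes, and region differences. The neurogranin and unnamed probes are exceptions. One of the 12 rises and 1 of the 12 falls are not reported here.

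On simulated cortex data for this comparison (12895 genes), limma called 91% of genes changed by 1 and 54% of those changed by 0.5, with 5.23% of its calls on unchanged genes. By the check used here, same-numbered arrays of the 2 ages deviated together (correlations of 0.23, 0.21, 0.34 and 0.42). The 2 ages are different fetuses, so the number does not pair animals. Slide and number partly coincide, since replicates 1, 3 and 4 each shared a slide across the ages, and the 2 were not told apart. The number of arrays limits the precision. Figures were drawn with matplotlib 3.10.9.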

Additional observations from a re-analysis of the deposited data

Results flagged for a closer look

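Among 126 groups of 4 cortex arrays (63 named genes at 2 ages), 4 had 1 array that stood apart from the other 3, where chance gives about 1 in 20. The gap to the nearest array, as a share of the group's range, was 0.915 for BCL2 at 80 d, where replicate 1 was 13.12 and the others 12.48 to 12.54. It was 0.842 for TRA2A at 100 d, with 11.04 for replicate 4 and 10.66 to 10.72 for the others. For LEPR at 80 d it was 0.879, with 6.76 for replicate 2 against 6.60 to 6.62, and for IGFBP4 at 100 d 0.841, with 14.07 for replicate 1 against 13.62 to 13.69. Without the array that stood apart BCL2 and TRA2A kept their calls, the call for IGFBP4 was lost and LEPR gained one.

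The change from 80 to 100 d differed between cortex and brainstem for 5 genes with a symbol by the test of the difference itself. The change in cortex minus that in brainstem was 3.01 for NEUROD1, 2.71 for SERPINA1, -1.99 for GJB1, -1.75 for CRYAB and -1.73 for NKX6-1. The values for SERPINA1 and NKX6-1 are fitted ones and not measured sizes, since SERPINA1 was not well above background at 100 d in either region and NKX6-1 not on any of the 8 cortex arrays.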

How the results depend on the processing

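The count of 770 changed genes was between 632 and 801 with an offset of 16, the processed signal, the authors' series table, quantile normalization within cortex, no filter, a filter on the 8 arrays, the brightest probe, each probe on its own, and trend and robust settings of eBayes. It was 265 at an adjusted p under 0.01, 352 when only the 8 arrays were fitted (207 higher and 145 lower) and 1212 with the slide as a block. With the replicate number as a block (which partly coincides with the slide and does not pair animals) it was 1136. Beside CXCR4, LEPR, SLC25A4, EEF1A1 and HSD11B1 this block changed no other call of a named gene in cortex. Leaving out 1 cortex array gave 343 to 886. For the region differences, leaving out arrays gave 7 to 11 genes against brainstem, 2 to 67 against hippocampus and 2 to 3 against hypothalamus, where an offset of 16 gave 1. The 3 hippocampus arrays at 100 d were added to these omissions after the data were seen.

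For the 63 named genes, 725 of 786 values under other settings kept their direction and call, 32 lost the call, 20 gained it and 9 reversed. With an array left out, 416 of 504 were kept, 77 lost, 4 gained and 7 reversed. The reversals were in values near 0 or in dim probes. FCGR2B was 1.02 and NKX6-1 -0.0034 with the processed signal. With the series table IL10 was -0.0065, GJB1 -0.021 and NKX6-1 -0.00042. ITGAM was 0.10 with its brightest probe, which is its second probe. IL10 was -0.0050 with its second probe and -0.024 with the slide as a block. With 1 cortex array left out, ITGAM was between -0.12 and 0.032, GJB1 (the CX32 probes) between -0.021 and 0.056 and IL10 between -0.047 and 0.046. The cause was not tested. Probes near background have the least certain differences, since the lowest signal well above background sets what can be measured.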
